A study of Mus musculus with 18 samples.

Results

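The genes described here are the subunits of voltage-gated sodium, calcium and potassium channels, of the other potassium channels, and of the HCN pacemaker channels in the mouse hippocampus. They were chosen by gene symbol alone: symbols beginning with Kcn, Cacna or Cacnb, and those beginning with Scn or Hcn followed by a digit. The rule found 91 of the 11738 gene symbols in the 3 deposited count tables, and 56 of them stand in every table. For a study of the microRNAs miR-132 and miR-212, polyadenylated RNA was sequenced from hippocampi of C57BL/6 mice of 3 modified lines, each set against nontransgenic controls of its own, to ask how hippocampal messages respond when these microRNAs are removed or overproduced. In the deletion line, Cre recombinase under the CaMKII promoter removes both floxed copies of the miR-132/212 locus, so cells outside excitatory forebrain neurons keep it. In tTA::miR132 and tTA::miR212 a tetracycline transactivator drives a transgene for the named microRNA. The sources used here do not give the promoter of the transactivator, nor the ages and sexes of the animals. No control carries Cre or the transactivator, so the driver and the microRNA cannot be told apart in any comparison. Each group had 3 replicates pooled from the cDNA of 6 animals. The deletion and tTA::miR132 tables hold 2 libraries per group and the tTA::miR212 table holds 3.

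Voltage-gated sodium channels start and carry the action potential, potassium channels end it and set the resting potential, and calcium channels turn it into transmitter release and signals to the nucleus. Each channel joins pore-forming subunits with auxiliary subunits that set its gating and its number at the membrane. miR-132 and miR-212 are made from neighbouring genes, are induced by neuronal activity, and lower the level or translation of messages whose 3′ untranslated region (3′ UTR) pairs with their seed, the bases 2 to 8 of the mature microRNA.

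The mature sequences are shown because one seed serves both transgenes and is what the deletion removes. They are taken from RefSeq (build GRCm38.p6, chromosome 11, plus strand, miR-212-3p at 75173443 to 75173464 and miR-132-3p at 75173723 to 75173744), with the seed in capitals.
miR-132-3p: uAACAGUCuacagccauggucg
miR-212-3p: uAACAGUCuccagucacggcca
They were identical at 17 of 22 positions, the seed included. The letters that pair with the seed are GACTGTT on the message strand. This motif was searched, on that strand only, in the longest 3′ UTR annotated for each gene (GENCODE M1 on build NCBIM37, the same assembly as mm9). It stood in 18 of the 89 members with an annotated 3′ UTR (20.2%) and in 13.2% of all 11272 genes searched. The members' 3′ UTRs were also longer, with a median of 1853 bases against 1287, and per 10 kilobases they held 1.11 matches against 0.882. The sites below are those of members on which the results turn, as 30-base windows with the seed match in capitals.
Scn1a: gtcaatgccaaactGACTGTTtttacacaa
Scn2a1: gtctatgccaaactGACTGTTtctataagt
Scn3a: gtccatgccaaactGACTGTTtcaacaaat
Cacna2d1: gaggtttgggagttGACTGTTgcacggttg
Kcnc1: gcatttctctttagGACTGTTggagtgact
Cacna1h: gcggacctggtggaGACTGTTtcttggaca
Kcna6: tctgaaactcaaagGACTGTTaacatgttt
The first 3 lie near the stop codon of neighbouring sodium channel genes on chromosome 2 (mm9): Scn1a at 66110833 to 66110862 on the minus strand, 94 bases past the stop, Scn2a1 at 65602996 to 65603025 on the plus strand, 124 bases past it, and Scn3a at 65298451 to 65298480 on the minus strand, 148 bases past it. Their windows were alike well beyond the seed match, with 24 of 30 letters identical between Scn1a and Scn2a1, 25 between Scn1a and Scn3a, and 26 between Scn2a1 and Scn3a. The Cacna2d1 site lies on chromosome 5 at 15876746 to 15876775 (plus strand), that of Kcnc1 on chromosome 7 at 53684333 to 53684362 (plus strand), and that of Cacna1h on chromosome 17 at 25512257 to 25512286 (minus strand). Kcna6 held 3 matches, the most of any member, and the one shown (chromosome 6, 126686927 to 126686956, minus strand) is followed by an A, as it is in only 1 other member, Scn7a. A match is a run of letters and not evidence of binding.

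Libraries of the deletion table held 8190899 to 9702801 counts, and those of tTA::miR132 held 8301385 to 14772907, both over RefSeq genes. The tTA::miR212 table lists Ensembl transcripts, and the 1 with the highest mean count per symbol was used, which left 1299369 to 1544923 counts per library. Levels are given as CPM, counts per 1000000 of the counts so used. The 87 members of the deletion table summed to 7709 to 8517 CPM per library, the 83 listed for tTA::miR132 to 7824 to 8520, and the 59 listed for tTA::miR212, where fewer genes are listed, to 12972 to 13882. Deletion library 1 stood apart: 12 of its 87 members and 9.93% of its genes were at 0, against at most 1 member and 1.14% of genes in the other libraries of its table. Between replicate libraries, members differed by a median of 0.81 on the log2 scale in the deletion group and 0.37 in its controls, by 0.39 in tTA::miR132 and 0.54 in its controls, and by 0.12 to 0.20 in the tTA::miR212 table. Of 8 markers of excitatory hippocampal neurons, Prox1 and Grin2a were at 0 in a library of the deletion table, and none of those listed was at 0 in the other tables. Their summed levels were 2528 and 2843 CPM in deletion controls against 2793 and 3060, 2814 and 3239 in tTA::miR132 controls against 2606 and 2913, and 7548 to 7790 in tTA::miR212 controls against 7220 to 7704. In bulk tissue, fewer cells of a type and less RNA per cell cannot be told apart.

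Levels per length were compared in the 3 control libraries of tTA::miR212. Kcnab2, a cytoplasmic beta subunit of Kv1 channels, stood at 223 ± 11.1 CPM per kilobase of transcript (mean ± SD, n = 3), the second highest level of the 59 members and clear of the next in the order. Further down came Cacnb3, a calcium channel beta subunit, at 115 ± 7.28, and Kcnj4, the inward rectifier Kir2.3, at 108 ± 4.38, which overlapped with each other in range. Among sodium channel pores the order was Scn8a at 72.2 ± 2.77, Scn2a1 at 51.1 ± 2.00, Scn1a at 19.9 ± 1.35 and Scn3a, the pore that dominates before birth, at 7.58 ± 0.46, the lowest level of the 59 members. Among calcium channel pores Cacna1e (R type) stood at 50.8 ± 1.72 and Cacna1a (P/Q type) at 39.3 ± 0.64, and the L type pores Cacna1c and Cacna1d were lowest at 13.97 ± 1.23 and 10.1 ± 1.94. By family, the median level was highest for sodium beta subunits (84.1), potassium auxiliary subunits (69.5) and inward rectifiers (54.5), and lowest for the silent or modifier potassium subunits (19.7). Most neighbours in the full order overlapped in their range over libraries. The order of members by level had a Spearman correlation of 0.93 between the controls of the RefSeq tables (79 members), but of 0.42 and 0.35 between either of them and tTA::miR212 (58 and 57 members). These correlations are descriptions over genes, and the tables differ in the transcripts counted. Some named orders differed in the deletion and tTA::miR132 controls. There Scn2a1 (64.1 and 66.2) lay above Scn8a (35.1 and 26.4), and Cacna1a (9.23 and 12.7) above Cacna1e (3.23 and 4.68). Kcnj4 ranked 45 of 87 and 34 of 83. Kcnab2 ranked 3 in both, and Scn1a (17.3 and 17.9) stayed above Scn3a (6.01 and 10.4). The family order differed there too. Sodium beta subunits kept the highest median (42.1 and 40.1), but auxiliary calcium channel subunits came next (29.7 and 29.3). Inward rectifiers stood at 5.66 and 10.6, over 10 and 9 listed members against 5 in tTA::miR212. Calcium channel pores had the lowest median (5.04 and 3.94).

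**Figure D1:**
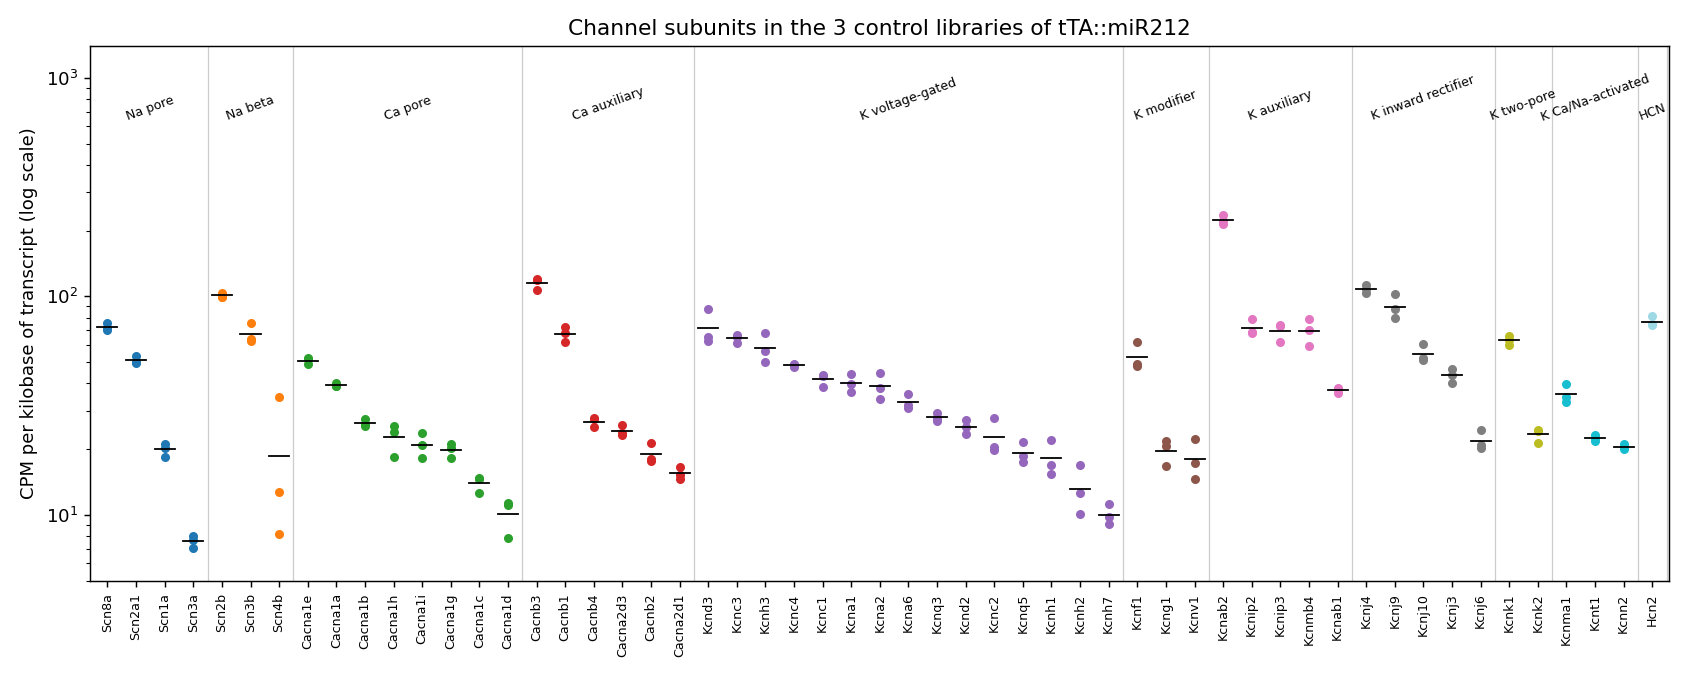
Level of 55 channel subunits in the 3 control libraries of tTA::miR212, in CPM per kilobase of transcript on a log axis, grouped by role. Points are libraries and bars are means, from 223 for Kcnab2 down to 7.58 for Scn3a.

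No channel subunit passed the test in any comparison. Each table was fitted with edgeR's quasi-likelihood test over all its genes, and with Benjamini-Hochberg adjustment 0 of 87 members and 0 of 10487 genes (0%) passed 0.05 in the deletion, 0 of 82 members and 0 of 10734 genes (0%) in tTA::miR132, and 0 of 59 members and 0 of 4618 genes (0%) in tTA::miR212. At an unadjusted p under 0.05 the counts were 0 members in the deletion (0.839% of all genes), 2 members in tTA::miR132 (2.44%, against 2.82% of all genes) and 4 members in tTA::miR212 (6.78%, against 5.63%). These shares were near or under the background in every comparison. DESeq2 also called 0 members in each, and 5, 39 and 0 genes in all. Without transgenic library 1 of tTA::miR212, 1 of the 59 members and 18 of the 4618 genes listed passed. The smallest adjusted p of a member was 0.999 in the deletion, 0.997 in tTA::miR132 and 0.801 in tTA::miR212. In the authors' deposited tables, by contrast, 52 of 87 members had a q-value under 0.05 in the deletion (59.8%, against 54.3% of all genes). In tTA::miR132 47 of 83 did (56.6%, against 53.1%), and in tTA::miR212 0 of 59 did (against 0.0866% of all genes).

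Since no member passed, the values below describe these libraries. In the deletion 39 of 87 members had a fitted log2 fold change below 0 (44.8%, against 52.1% of all genes), with a median of 0.06 against -0.03. That median was below 0 with limma-voom (-0.054), with the replicate block (-0.038) and without deletion library 2 (-0.12). In tTA::miR132 47 of 82 were below 0 (57.3%, against 50.1%), with a median of -0.12 against -0.00. In tTA::miR212 39 of 59 were below 0 (66.1%, against 49.0%), with a median of -0.05 against 0.00. When all 161 transcript rows of members in that table were used, 84 were below 0 and the median was -0.01. Members whose groups did not overlap between libraries numbered 20 higher (23%) and 7 lower (8.05%) in the deletion, where 14.3% and 18% of all genes did so. Leaving out deletion library 1, the numbers were 43 higher and 15 lower, against 35.4% and 33.1% of all genes. In tTA::miR132 the numbers were 14 higher (17.1%) and 19 lower (23.2%), where 18.8% and 14.3% of all genes did so. In tTA::miR212 they were 0 higher and 3 lower (5.08%), where 6.47% and 4.96% of all genes did so. With any 1 library left out these counts were 28 to 43 higher and 15 to 41 lower in the deletion. The most higher came without deletion library 1, as given, and the most lower without deletion library 2 (47.1%, against 50.6% of all genes). In tTA::miR132 they were 22 to 33 higher, the most without control library 1 (40.2%, against 44.7%), and 28 to 38 lower, the most without control library 2 (46.3%, against 32.1%). In tTA::miR212 they were 1 to 6 higher and 4 to 12 lower, the most of each without transgenic library 1 (10.2% higher, against 15.9%, and 20.3% lower, against 11.6%).

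**Figure D2:**
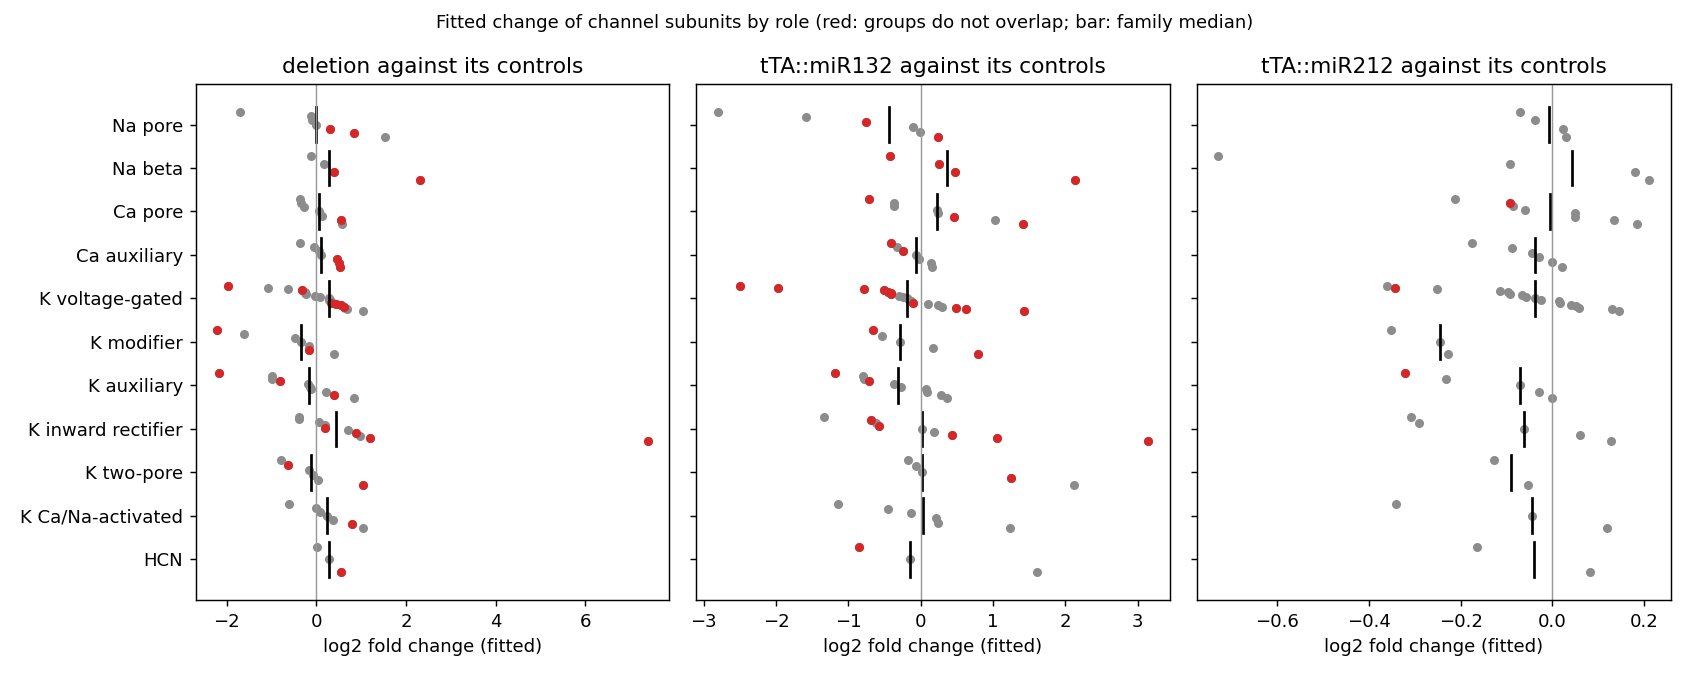
Fitted log2 fold change of each tested member in the 3 comparisons, grouped by role. Red points are members whose groups do not overlap, black bars are family medians, and the x axes differ in range; the far right point of the deletion is Kcnj15, whose fitted value depends on the prior count because its controls held 0 and 1 counts.

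Sodium channel pores divided by gene. Scn3a (chromosome 2, 65295175 to 65405549, minus strand) stood at 61.7 and 89.5 CPM in deletion controls and at 157 and 110 CPM in the deletion. In the tTA::miR132 table it stood at 105 and 158 CPM in controls and at 59.3 and 102 in the transgenic libraries. It was thus higher in both deletion libraries and lower in both tTA::miR132 libraries, although the lower control and the higher transgenic library of the latter were close. The log2 fold changes were 0.85 ± 0.38 (SE) and -0.76 ± 0.38, with adjusted p of 0.999 and 0.997 by edgeR. In tTA::miR212 it was at 60.6 to 68.4 CPM in controls and 60.2 to 76.4 in transgenic libraries, which overlapped. Scn1a, the main pore of fast-spiking interneurons, stood at 219 and 165 CPM in deletion controls and 227 and 237 in the deletion, and overlapped in the other tables. Scn2a1 and Scn8a are the main pores of excitatory axons. Scn2a1 was at 510 and 677 CPM in deletion controls against 498 and 589, and at 635 and 591 in tTA::miR132 controls against 562 and 613. Scn8a was at 366 and 486 CPM against 390 and 375 in the deletion, but at 340 and 301 against 362 and 415 in tTA::miR132, where the groups did not overlap. Over the family, 4 of 7 pores were below 0 in the deletion (median -0.01), 5 of 6 in tTA::miR132 (median -0.43) and 2 of 4 in tTA::miR212 (median -0.01).

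Sodium channel beta subunits were above 0 for 3 of 4 in the deletion, 3 of 4 in tTA::miR132 and 2 of 4 in tTA::miR212. Scn4b, the beta4 subunit linked to resurgent current, was scarce in both RefSeq tables. Its levels were 3.07 and 6.59 CPM in deletion controls against 34.4 and 12.4, and 1.31 and 7.83 in tTA::miR132 controls against 25.2 and 16.5. It was higher in both modified lines, with log2 fold changes of 2.31 ± 1.38 and 2.13 ± 1.29. In tTA::miR212 its control library 3 stood at 171 CPM, while every other library lay between 40.5 and 63.1. The listed thalamic markers, 3 of 5 in the deletion table, 4 in tTA::miR132 and 2 in tTA::miR212, included Tcf7l2 in the first and Lef1 and Rora in the second at 0 in a library. Summed, they stood at 105 and 51.6 CPM in deletion controls against 28.2 and 51.3, and at 58.0 and 86.5 in tTA::miR132 controls against 43.9 and 60.2. In tTA::miR212 they stood at 130, 109 and 131 CPM in controls against 118, 194 and 137. Their part in the Scn4b values was not tested. Scn3b, the beta3 subunit, was at 105 and 88.3 CPM in tTA::miR132 controls against 148 and 130, and at 258 to 313 in tTA::miR212 controls against 303 to 337. Its groups did not overlap in tTA::miR132 (log2 fold change 0.48 ± 0.31), while in tTA::miR212 the lowest transgenic library lay under the highest control (0.21 ± 0.09, adjusted p = 0.845 by edgeR). Scn2b stood at 393 to 412 CPM in tTA::miR212 controls and at 392, 447 and 526 in the transgenic libraries.

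Calcium channel pores held the member with the smallest p in tTA::miR132. Cacna1h, the T type pore Cav3.2 that opens near rest, stood at 33.2 and 20.8 CPM in controls and at 77.8 and 69.8 in tTA::miR132, so that the lowest transgenic library was above the highest control by more than the spread of either group. The log2 fold change was 1.41 ± 0.49, with an unadjusted p of 0.0142, an adjusted p of 0.997 by edgeR's quasi-likelihood test, and an adjusted p of 0.0521 by DESeq2. The adjusted p over all alternatives with every library ranged from 0.0521 to 0.998. The gene (chromosome 17, 25511237 to 25570728, minus strand) overlaps Tpsg1 on the other strand, and the sources used here do not say whether counting used strand. In the other tables Cacna1h overlapped between groups, at 41.5 and 73.7 CPM in deletion controls against 37.9 and 87.7, and at 151 to 210 in tTA::miR212 controls against 158 to 207. Of the other T type pores, Cacna1g stood at 76.3 and 117 CPM in tTA::miR132 controls against 64.7 and 90.05, with a log2 fold change of -0.37 ± 0.39. Cacna1i stood at 38.3 and 24.9 CPM there against 44.6 and 30.9 (0.22 ± 0.59), and at 179 to 232 in tTA::miR212 controls against 159 to 189. Both overlapped between groups in every table. Cacna1e stood at 56.4 and 62.4 CPM in tTA::miR132 controls against 24.5 and 50.7, and at 38.2 and 43.8 in deletion controls against 2.23 and 61.7, so that the deletion libraries lay on either side of their controls. Cacna1a, the pore of fast transmitter release, was lower in all 3 tTA::miR212 libraries, at 308 to 317 CPM in controls against 286 to 306, by a log2 fold change of only -0.09 ± 0.08.

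Auxiliary calcium channel subunits were above 0 in the deletion for 5 of 7, and below 0 in tTA::miR132 for 5 of 7 and in tTA::miR212 for 5 of 6. Cacna2d1, the alpha2delta1 subunit that carries calcium channels to the membrane and binds gabapentin (chromosome 5, 15440509 to 15880329, plus strand), stood at 271 and 309 CPM in deletion controls and 447 and 357 in the deletion. In tTA::miR132 it stood at 364 and 374 CPM in controls and 327 and 314 in transgenic libraries. The log2 fold changes were 0.50 ± 0.24 and -0.25 ± 0.19, and in tTA::miR212 the groups overlapped at 109 to 124 CPM against 99.7 to 118. Cacna2d3 was higher in both deletion libraries, at 105 and 115 CPM in controls against 169 and 125, and overlapped in tTA::miR132. Cacnb4, a cytoplasmic beta subunit, overlapped in all tables, at 319 and 444 CPM in deletion controls against 335 and 396, at 457 and 315 in tTA::miR132 controls against 394 and 384, and at 207 to 228 in tTA::miR212 controls against 199 to 234.

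Voltage-gated potassium pores were above 0 in the deletion for 11 of 19, and below 0 in tTA::miR132 for 13 of 19 and in tTA::miR212 for 10 of 17. Kcnb2 encodes Kv2.2, a delayed rectifier. It stood at 20.5 and 76.1 CPM in tTA::miR132 controls against 15.7 and 9.69, with a log2 fold change of -1.98 ± 0.76 and an adjusted p of 0.997 by edgeR. That value rested on control library 2, and was -0.70 without it. Kcnc1, encoding Kv3.1 of fast-spiking neurons, was higher in the deletion and lower in tTA::miR132. It stood at 142 and 154 CPM in deletion controls against 192 and 175, and at 187 and 141 in tTA::miR132 controls against 110 and 138. The log2 fold changes were 0.34 ± 0.26 and -0.45 ± 0.30. Kcnc1 is represented by another RefSeq transcript in each table, as are 4 further members of the 79 in both. Kcna1, an axonal Kv1 pore, was lower in both lines, at 394 and 430 CPM in deletion controls against 267 and 383, but by under 1 CPM at the nearest pair in tTA::miR132 (386 and 386 in controls against 351 and 386). Kcnd2, the Kv4.2 pore of dendritic A current, stood at 276 and 183 CPM in deletion controls against 34.9 and 184, so its low mean in the deletion came from library 1.

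Silent or modifier subunits, which pair with other Kv pores and form no channel alone, were below 0 in the deletion for 6 of 7, in tTA::miR132 for 3 of 5 and in tTA::miR212 for 3 of 3. Among the 6 in the deletion, Kcns1 (-2.21), Kcng1 (-1.61) and Kcns2 (-0.48) held 0 counts in deletion library 1. Kcnv1 (Kv8.1) stood at 120 and 102 CPM in tTA::miR132 controls and 68.6 and 75.8 in transgenic libraries, with a log2 fold change of -0.66 ± 0.35, and overlapped in the deletion at 104 and 89.1 in controls against 147 and 101. Kcng1 (Kv6.1) stood at 89.0, 68.5 and 84.1 CPM in tTA::miR212 controls against 53.7, 69.3 and 66.9, a log2 fold change of -0.35 ± 0.15 (adjusted p = 0.845 by edgeR). Potassium auxiliary subunits were below 0 in the deletion for 7 of 10, in tTA::miR132 for 6 of 10 and in tTA::miR212 for 5 of 5. Kcnip3, which encodes the Kv4 partner KChIP3, also known as the calcium-regulated repressor DREAM, had the smallest p in tTA::miR212. It stood at 169, 199 and 201 CPM in controls and at 152, 146 and 161 in the transgenic libraries, so that each of the latter was under each control. The log2 fold change was -0.32 ± 0.10, with an unadjusted p of 0.00606 and an adjusted p of 0.801 by edgeR. Both of its transcript rows were lower. In the deletion it stood at 128 and 170 CPM in controls against 211 and 172, and in tTA::miR132 at 147 and 63.1 against 139 and 138. Kcnip4, another KChIP, was lower in both deletion libraries, at 152 and 160 CPM in controls against 57.0 and 121, with a log2 fold change of -0.80 ± 0.41. It was -0.38 without library 1. Kcne2, a small subunit abundant in choroid plexus, held 122 and 276 counts in deletion controls against 0 and 102. Summed markers of choroid plexus moved with it in the deletion, at 4500 and 5029 CPM in controls against 512 and 1759, with all 8 of 8 markers below 0 and Folr1, Clic6, Otx2 and Aqp1 at 0 in a library. Their part in the Kcne2 values was not tested. In tTA::miR132 Kcne2 stood at 30.0 and 12.9 CPM in controls against 11.7 and 7.52. Summed choroid plexus markers there overlapped between groups, at 5297 and 3923 CPM against 4195 and 2948. Most of that sum was Ttr, at 5094 and 3720 CPM in controls against 4028 and 2822. Of the 8 markers, 5 were below 0 and 3 above, with Aqp1 at 0 in a library.

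Inward rectifiers, which hold the resting potential, were above 0 in the deletion for 8 of 10, in tTA::miR132 for 5 of 9 and in tTA::miR212 for 2 of 5. Kcnj11, the Kir6.2 pore of the ATP-sensitive channel, stood at 26.3 and 11.96 CPM in deletion controls against 40.9 and 44.8, with a log2 fold change of 1.19 ± 0.69. In tTA::miR132 it stood at 16.1 and 88.3 CPM in controls against 11.2 and 32.1, and its log2 fold change of -1.33 became 0.41 without control library 2. Kcnj4 stood at 16.3 and 16.4 CPM in deletion controls against 42.0 and 16.9, and at 30.7 and 29.0 in tTA::miR132 controls against 25.4 and 15.6. Its log2 fold change in the deletion, 0.89 ± 0.87, was 0.04 without deletion library 1. Kcnj15 (Kir4.2) held 0 and 1 counts in deletion controls and 205 and 18 in the deletion. Kcnj10, the Kir4.1 channel of astrocytes, stood at 181 and 131 CPM in tTA::miR132 controls against 214 and 216 (log2 fold change 0.43 ± 0.26), while summed astrocyte markers overlapped at 4585 and 5296 against 4744 and 4765. In the deletion it stood at 190 and 161 CPM against 97.1 and 171. Among two-pore channels, Kcnk1 (TWIK1) had the smallest p of any member in the deletion. It stood at 207 and 218 CPM in controls and 120 and 150 in the deletion, a log2 fold change of -0.63 ± 0.26 with an unadjusted p of 0.0533 and an adjusted p of 0.999 by edgeR. It overlapped in tTA::miR132, at 159 and 174 CPM against 140.5 and 207, and in tTA::miR212, at 138 to 151 against 126 to 154. Kcnma1, the pore of the large-conductance calcium-activated BK channel, stood at 177 and 129 CPM in deletion controls against 318 and 203, a log2 fold change of 0.80 ± 0.34 that was 0.40 without deletion library 1. In the other tables it overlapped, at 270 and 152 CPM in tTA::miR132 controls against 179 and 138, and at 121 to 146 in tTA::miR212 controls against 125 to 176. Hcn2, a pore of the pacemaker current Ih, stood at 19.7 and 24.1 CPM in deletion controls against 26.5 and 36.8, and at 29.6 and 36.3 in tTA::miR132 controls against 14.4 and 23.5.

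The deletion and tTA::miR132 change the same microRNA in opposite directions and share no library, so members can be set side by side. Of the 79 members tested in both, 7 were higher in the deletion and lower in tTA::miR132 without overlap in either, among them Scn3a, Cacna2d1, Kcnc1, Kcnj4 and Hcn2. The 7 made up 8.86% of the members, while 2.14% of the 9980 genes tested in both showed that pattern. The reverse, lower in the deletion and higher in tTA::miR132, was shown by 0 members and by 3.41% of all genes. Scn4b was higher in both lines (1.27% of members, against 2.77% of all genes), and Kcna1 and Kcne2 were lower in both (2.53%, against 2.48%), shares at or under the background. Of all 79, 50.6% had fitted values of opposite sign in the comparisons, against 50.5% of all genes. Above 0 in the deletion and below 0 in tTA::miR132 were 26 of them (32.9%), against 23.6% of all genes. With 2 libraries per group these counts rest on single libraries. Leaving out 1 library at a time gave 8 to 13 members (10.1% to 16.5%, against 3.24% to 5.48% of all genes). Without deletion library 1 there were 12 (15.2%, against 4.94%). Leaving out a library can only keep or raise such a count, so these counts are no check on the pattern. The same 7 members were found with CPM from TMM library sizes. No test was made of the set, whose members were found by their values, and none of the 7 passed the test in either comparison.

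**Figure D3:**
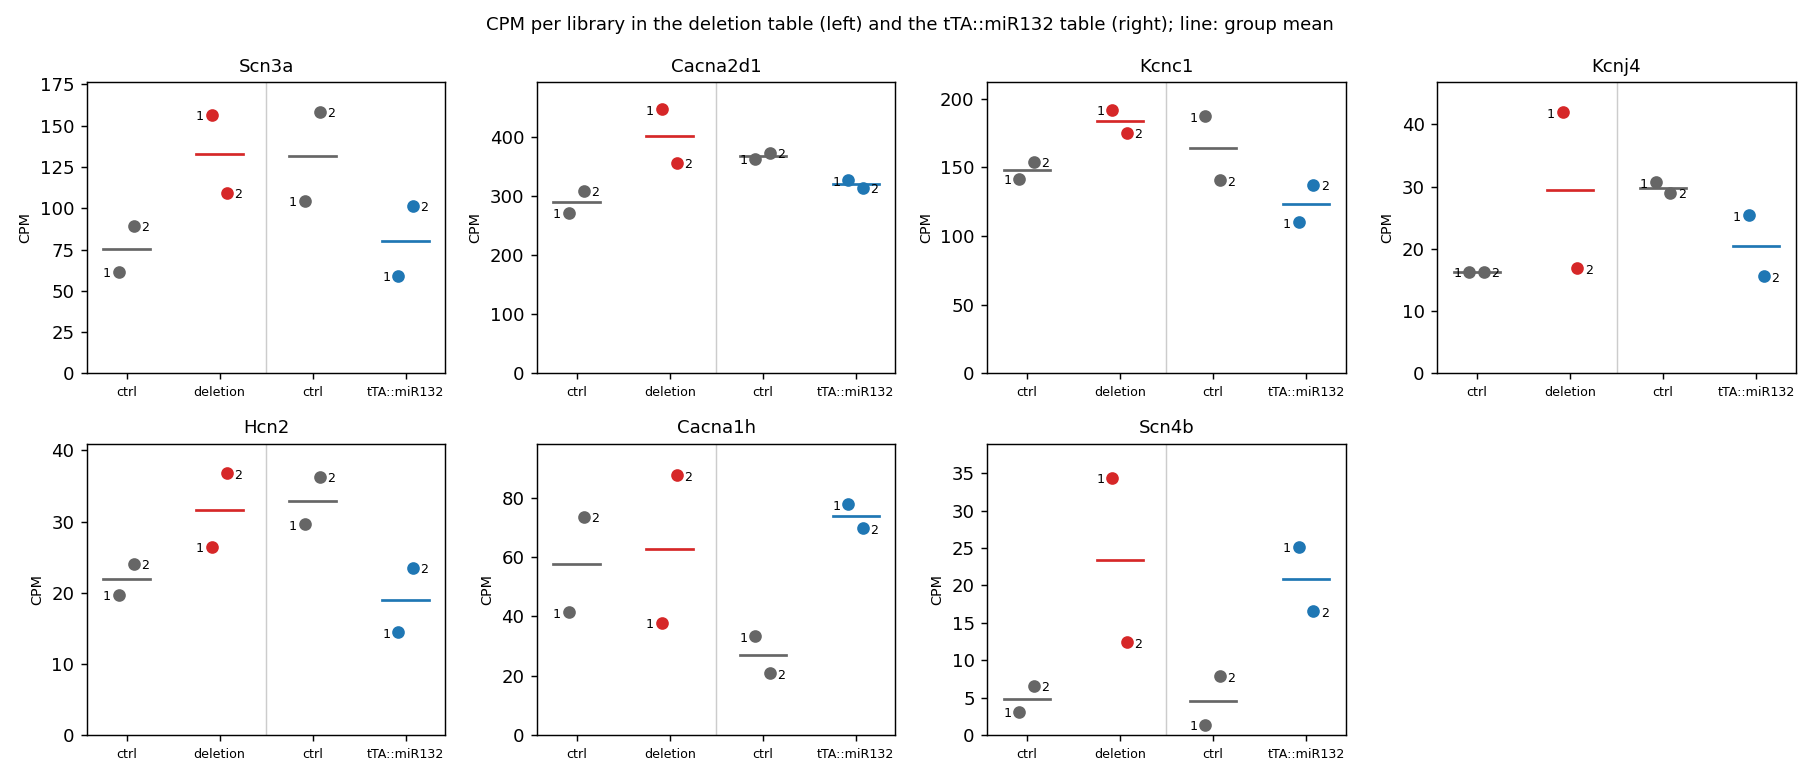
CPM of 7 members in each library of the deletion table and the tTA::miR132 table, with library numbers beside the points and lines at the group means. The first 5 panels are members higher in the deletion and lower in tTA::miR132; Cacna1h is high in tTA::miR132 at 77.8 and 69.8 CPM, and Scn4b is higher in both lines.

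**Figure D4:**
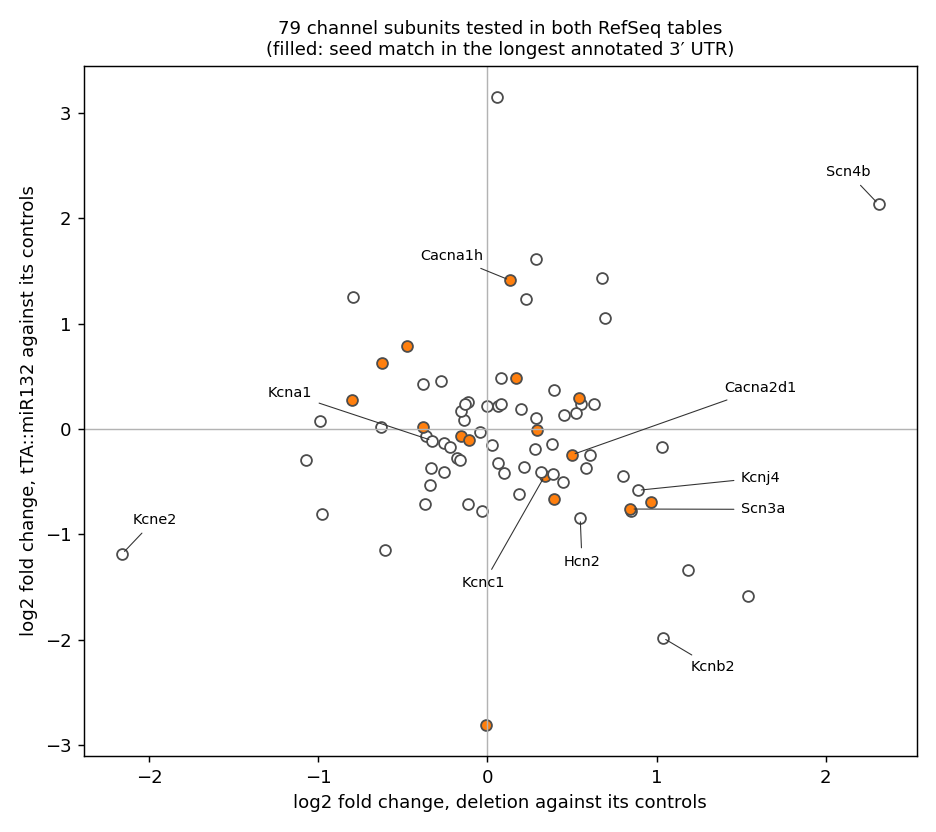
Fitted log2 fold change of the 79 members tested in both RefSeq tables, the deletion on the x axis and tTA::miR132 on the y axis, with members holding a seed match filled. Opposite signs occur for 50.6% of the members, and filled points lie on all sides of 0.

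Members with and without a seed match were set side by side by direction. In the deletion 9 of 18 members with a match were below 0, with a median log2 fold change of 0.06, and 30 of 68 without one, with a median of 0.06. In tTA::miR132 9 of 16 with a match were below 0 (median -0.04) and 37 of 65 without (median -0.14). In tTA::miR212 7 of 12 with a match were below 0 (median -0.05) and 31 of 46 without (median -0.05). Over all genes, 52.7% with a match and 51.9% without were below 0 in the deletion. The shares were 51.1% and 49.9% in tTA::miR132, and 44.6% and 49.5% in tTA::miR212. Of the 7 members higher in the deletion and lower in tTA::miR132, Scn3a, Cacna2d1 and Kcnc1 hold a match. Of all members searched, 20.2% do. Scn3a, Cacna2d1 and Kcnc1 have 3′ UTRs of 3439, 3837 and 5042 bases, against a median of 1853 over members. The 7 were picked by their values, so setting these shares side by side is no test. Scn1a and Scn2a1, whose sites are nearly the letters of the Scn3a site, stood at log2 fold changes of 0.29 ± 0.26 and -0.11 ± 0.22 in the deletion and of -0.01 ± 0.26 and -0.10 ± 0.16 in tTA::miR132. Cacna1h, with a match, was the member with the smallest p in tTA::miR132, in the higher direction. Kcna6, a Kv1 pore with 3 matches, stood at 48.2 and 74.5 CPM in deletion controls against 89.4 and 86.4, at 73.1 and 29.5 in tTA::miR132 controls against 67.4 and 61.3, and at 179 to 208 in tTA::miR212 controls against 178 to 207.

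Within tTA::miR212, transgenic library 1 differed from libraries 2 and 3 in several potassium channels. In 9 of 59 members (15.3%, against 6.60% of all genes) libraries 2 and 3 lay below every control while library 1 did not: Kcnc4, Kcnf1, Kcnh1, Kcnh3, Kcnj4, Kcnj9, Kcnk2, Kcnmb4 and Kcnv1. In 6 members (10.2%, against 9.44%) libraries 2 and 3 lay above every control while library 1 did not, among them Cacna1c, Cacna1e, Hcn2, Scn2b and Scn3b. All 9 on the lower side are potassium channel genes, as are most of the 59 members. Kcnj4 stood at 223, 242 and 233 CPM in controls and at 252, 166 and 159 in the transgenic libraries. Kcnj9, a subunit of the G protein gated GIRK channels, stood at 260, 285 and 334 CPM in controls and 304, 221 and 193 in transgenic libraries. Kcnh3 (Kv12.2), which limits excitability of hippocampal pyramidal cells, stood at 202, 179 and 242 CPM against 212, 146 and 133. In each of the 3, library 1 lay within or above the controls. Without library 1 the log2 fold change of Kcnj4 moved from -0.29 to -0.53. Kcnj4 and the library left out were both picked by these same values, so a fit without that library is no test of Kcnj4. The same library was high in activity-regulated genes: Fos stood at 68.4, 74.7 and 71.2 CPM in controls and at 166, 28.5 and 17.4 in transgenic libraries 1 to 3, and Arc at 515, 512 and 426 against 802, 245 and 185. The summed markers of excitatory hippocampal neurons split by library in the same way. They stood at 7548, 7784 and 7790 CPM in controls and at 7704, 7220 and 7406 in transgenic libraries 1 to 3. Of these 8 markers, 5 had a fitted value below 0 and 3 above. Summed interneuron markers stood at 922, 934 and 985 CPM against 975, 937 and 961. The part of activity genes or of neuron markers in the channel values was not tested.

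**Figure D5:**
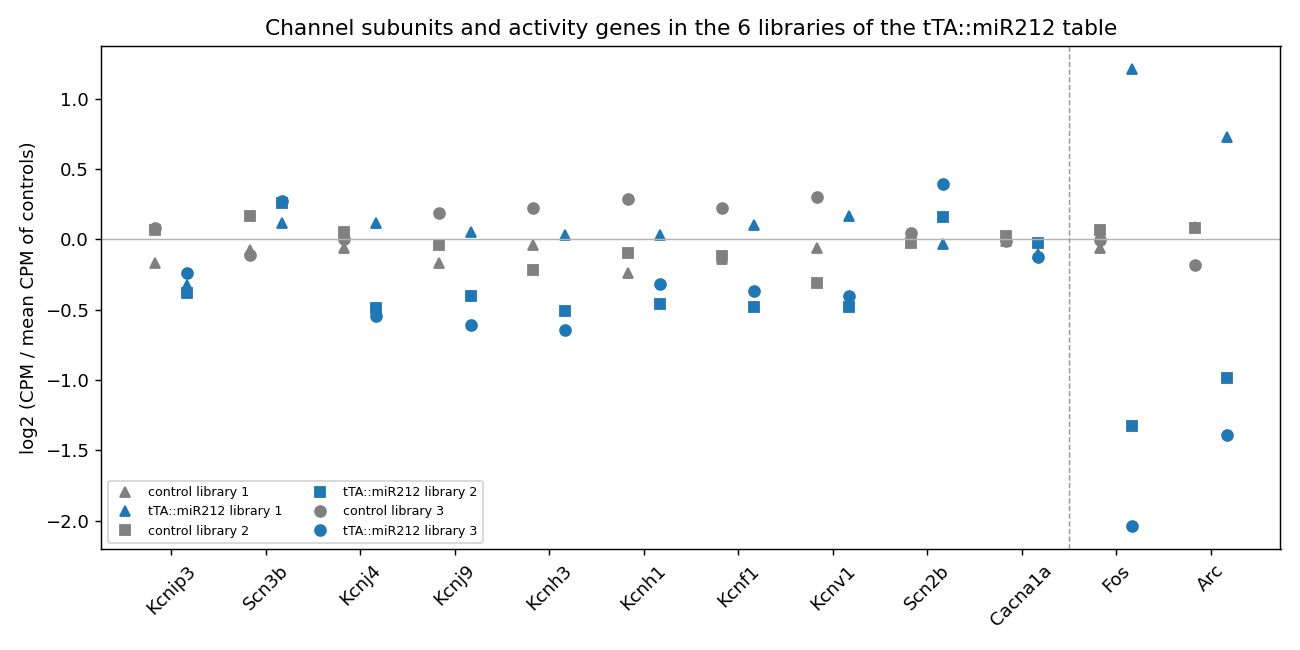
Levels in the 6 libraries of the tTA::miR212 table as log2 of CPM over the control mean, for 10 members and, right of the dashed line, Fos and Arc. Transgenic library 1 (blue triangles) lies above libraries 2 and 3 for Kcnj4, Kcnj9 and Kcnh3, as it does for Fos and Arc, while all 3 transgenic libraries lie below the controls for Kcnip3.

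The members at 0 in deletion library 1 ranked 55 to 84 of 87 by level per length in the controls, apart from Kcne2, which ranked 33. In that library Kcns1, Kcns2, Kcng1, Kcnq3, Hcn3, Kcnk4, Kcnk12, Kcnu1, Kcnmb2, Kcne2, Scn7a and Scn9a had no count, while deletion library 2 had counts for each. In tTA::miR132 library 1 Scn9a held 0 counts, Kcnh4 0, Kcnk9 0, Kcnk10 0 and Kcnt2 0, against 26, 22, 7, 104 and 110 in library 2. Among its controls Kcnk9 was at 0 in library 1 and Kcnk10 in library 2. Kcnk9 was the 1 listed member left untested there because of low counts. These zeros make the fitted values of such members uncertain, with standard errors of 2 or more on the log2 scale for most.

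Partners of the channels that the symbol rule does not take, 44 genes such as the Kv4 partners Dpp6 and Dpp10, the ankyrins, the stargazin family and the sodium pumps, had no call either. Of these, 39 stood in the deletion table, 39 in the tTA::miR132 table and 34 in the tTA::miR212 table, and 0 passed edgeR's test in either direction, with 0, 1 and 0 at an unadjusted p under 0.05. Their median log2 fold changes were 0.03, -0.01 and 0.01. Without overlap, 4 were lower and 7 higher in the deletion, where 18% and 14.3% of all genes were. In tTA::miR132 6 were lower and 10 higher (all genes 14.3% and 18.8%), and in tTA::miR212 2 and 4 (4.96% and 6.47%). Dpp10, which speeds Kv4 gating, was lower without overlap in both RefSeq tables, as were 2.48% of all genes tested in both. It stood at 133 and 161 CPM in deletion controls against 107 and 111, and at 189 and 159 in tTA::miR132 controls against 126 and 109. Nedd4l, a ubiquitin ligase that removes sodium channels from the membrane, stood at 137 and 199 CPM in deletion controls against 331 and 225, at 180 and 80.8 in tTA::miR132 controls against 130 and 157, where it overlapped, and at 78.0 to 85.4 in tTA::miR212 controls against 86.6 to 108.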

How the data were processed

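Hippocampal RNA of 6 groups was sequenced and aligned to mm9 with Bowtie 0.12.7, and the authors measured FPKM with Cufflinks 1.2, per the series' design text. No source used here says which tool made the deposited counts, or with which annotation and gene filter. The deposited values are raw read counts, whole numbers for each RefSeq gene or Ensembl transcript, per the file headers; the authors' q-values were only counted. The 14 deposited columns of normalized values were not used. Columns carry numbers and labels letters, so the 14 libraries analysed were tied to groups but not to single samples of the 18 labelled; the third library of 4 groups is not analysed here. Nothing ties a p-value to more than the spread between these pooled libraries. The RefSeq tables list no chromosome X gene. RefSeq starts were taken as counted from 0 and are printed from 1.

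Each table was fitted alone in R 4.3.3 with edgeR 4.0.16 (quasi-likelihood test, TMM, filterByExpr, Benjamini-Hochberg over all genes, threshold 0.05), and tested on simulated data first. Alternatives were DESeq2 1.42.0, limma-voom (limma 3.58.1), other scaling, no filter, a replicate block, single libraries left out and all transcript rows. Same-numbered libraries did not deviate together (correlations of -0.08 to 0.02), so no pairing was used. Members named are those with the 10 smallest p, the highest levels, the extremes of each role family, members at 0 in a library, and a fixed set of well-known channels; those of the opposite-direction and library patterns, and context genes named, were chosen after their values were seen. The members and lists were chosen with earlier results of these data known. Some members are not reported here by name and were left out of the plots that name genes; they remain in all counts.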

Additional observations from a re-analysis of the deposited data

How the results depend on the processing

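Of 579 recomputed values, 523 kept their call or stayed near the reported one, 41 moved and 4 changed sign. The rest were values of single members that passed 0.05 in a fit with a library left out. A median stayed near if it shifted by less than the largest median difference between replicate libraries (0.81, 0.54 and 0.20 by table). These exceed the medians themselves, so a median could hardly count as moved. Single members counted as kept at any size of the same sign. Among 38 results on single members, 399 of 400 recomputed values kept their direction. The exception was Kcnj11 in tTA::miR132, at -2.27 to 0.41 with a library left out (0.41 without control library 2). The median of members in the deletion was -0.054 with limma-voom, -0.038 with the replicate block and -0.12 to 0.22 with a library left out (-0.12 without deletion library 2), so its sign is not settled. Genes passing in the deletion were 5 with DESeq2 and 1 to 4527 with single libraries left out, and members 0 to 41. The highest of each came without deletion library 2, when library 1 alone stands for the deletion and is assumed to vary like the controls. Genes passing in tTA::miR132 were 39 with DESeq2, 2 with limma-voom, 1 with the replicate block and 0 to 111 with a library left out. In tTA::miR212 they were 1 with the replicate block and 0 to 18 with a library left out, with 0 to 1 members. The replicate block changed no member's call. Leaving out single libraries gave 15 to 41 members lower and 28 to 43 higher without overlap in the deletion, 28 to 38 lower and 22 to 33 higher in tTA::miR132, 4 to 12 lower and 1 to 6 higher in tTA::miR212, and 8 to 13 higher in the deletion and lower in tTA::miR132; fewer libraries part more easily. The mean summed level of members in tTA::miR212 controls was 13418 CPM, and 5566 against the total of all rows. Depth limits the scarce members, and 2 libraries per group limit every value of the RefSeq tables.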
